A study of Mus musculus with 2 samples.

Results

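Transcripts of 9 adhesion and egress genes were measured in single B cells of the mouse heart. The genes were the integrin subunits Itgal, Itgb2, Itga4, Itgb1 and Itgb7, the hyaluronan receptor Cd44, the integrin ligand Icam1 and the sphingosine 1-phosphate receptors S1pr1 and S1pr4. They were chosen by name, with earlier results of these data known, and are 9 of the 31053 genes in the tables. They were read over droplets of both libraries with at least 2000 gene UMIs, at most 10% mitochondrial UMIs and a UMI of Cd79a. Cd79a is a chain of the B cell receptor. UMIs are unique molecular identifiers, each marking a captured mRNA molecule.

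Heart B cells of wild-type C57BL6/J mice were sorted live by surface markers and sequenced as 1 droplet library per age. The neonatal library came from mice 2 weeks old (the title gives 15 days), males and females pooled, and the adult library from males 8 weeks old. For each age 6 mice were pooled, in 2 tubes of 3 hearts that had been perfused, and both ages were digested and sorted alike on the same day. With 1 library per age nothing can be tested across samples, and age, pool and library preparation cannot be told apart, nor sex except in part, since neonatal cells with Y-linked transcripts and no Xist could be compared alone.

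The rule kept 2077 neonatal cells with a median of 6000 UMIs and 3611 adult cells with a median of 6131 UMIs. Cells were split by 6 genes of B1 cells, the innate-like B cells that in the adult are best known from the body cavities: Bhlhe41, Zbtb32, Ctla4, Cd9, S100a6 and Nid1. Cells with a UMI of at least 3 of the 6 are called B1-gene cells here, and they numbered 177 (8.52%) in the neonatal library and 580 (16.1%) among adult cells. The remaining 1900 neonatal and 3031 adult cells are called other cells. B1-gene cells had more UMIs, with medians of 15881 and 16550 against 5821.5 and 5150 in other cells. Leaving aside the genes of the rule, Itgam, the CD11b chain of B1 cells in the heart, was at 12.1 CPM (UMIs per 1000000 UMIs of all genes) in neonatal B1-gene cells and 4.44 in other cells, and at 16.6 and 3.74 in the adult. A UMI of Itgam was found in 10.2% of neonatal and 21.6% of adult B1-gene cells. For the further B1 markers these shares were 22.0% and 11.4% (Cd5) and 28.8% and 27.4% (Spn). Each of these transcripts was thus missing from most B1-gene cells. Cd79b was found in 99.5% and 99.4% of neonatal and adult cells and Ms4a1 in 97.4% and 95.6%. More B1-gene cells, which are deeper, held transcripts of other cell types: droplets with at least 2 UMIs of 8 macrophage markers were 10.7% of neonatal and 6.21% of adult B1-gene cells, against 0.895% and 0.693% of other cells. Per UMI, the summed macrophage markers were at 128 CPM in B1-gene and 82.3 in other neonatal cells, and at 16 and 17.7 in adult ones. The Itgam levels were not recomputed without droplets holding macrophage markers. The 2 libraries shared barcodes, 61 of the neonatal and 45 of the adult cells having a barcode with at least 500 UMIs in the other library. The part of depth, mixed droplets and shared barcodes in the results was not tested.

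Integrins are pairs of an alpha and a beta chain, and a leukocyte shows a given integrin only when it makes both chains. Itgal with Itgb2 gives LFA-1, which binds Icam1 on endothelium and other leukocytes. Itga4 pairs with Itgb1 as VLA-4, the receptor of Vcam1 and fibronectin, or with Itgb7 as LPAM-1, the gut homing receptor that binds Madcam1. Together with Cd44 these molecules let B cells stop on vessel walls and keep them in niches such as the splenic marginal zone. Sphingosine 1-phosphate is abundant in blood and lymph and scarce in tissue, and S1pr1 lets lymphocytes follow it out. B1 cells of the body cavities are known for high integrin display. Transcripts do not measure surface protein or integrin activation, and with no B cells of blood or spleen among these samples, retention in the heart was not measured.

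The genes lie on 7 chromosomes of the mouse (GENCODE annotation of GRCm38): Itgal at chr7:127296260-127335138, Itgb2 at chr10:77530252-77565708, Itga4 at chr2:79255426-79333123, Itgb1 at chr8:128685654-128733200, Itgb7 at chr15:102215995-102231944, Cd44 at chr2:102811141-102901665, Icam1 at chr9:21015985-21028817, S1pr1 at chr3:115710433-115715072 and S1pr4 at chr10:81497747-81500132. Itga4 overlaps the protein-coding Cerkl and Icam1 the antisense gene Gm47079, both on the opposite strand. The 250 bases before the start of transcription are shown for Itgb1 and Cd44, which were higher in B1-gene cells of both libraries. They are also shown for Icam1, which was higher in those of the neonatal library. Itgb7 was higher there too, and its window is not shown. RefSeq windows (GRCm38.p6) were at hand for 6 of the 9 genes, leaving out Itgb2, Itgal and S1pr1. Capitals mark the GC box.
Itgb1, chr8:128685404-128685653, plus strand: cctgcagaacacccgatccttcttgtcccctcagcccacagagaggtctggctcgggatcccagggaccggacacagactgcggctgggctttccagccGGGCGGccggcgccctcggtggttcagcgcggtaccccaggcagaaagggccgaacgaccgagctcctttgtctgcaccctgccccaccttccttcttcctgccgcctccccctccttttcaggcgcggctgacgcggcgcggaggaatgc
Cd44, chr2:102901666-102901915, minus strand: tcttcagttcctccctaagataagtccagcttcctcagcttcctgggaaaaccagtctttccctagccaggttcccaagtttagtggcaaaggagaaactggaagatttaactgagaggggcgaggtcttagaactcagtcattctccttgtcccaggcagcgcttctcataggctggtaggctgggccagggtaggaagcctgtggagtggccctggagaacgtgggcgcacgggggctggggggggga
Icam1, chr9:21015690-21015939, plus strand: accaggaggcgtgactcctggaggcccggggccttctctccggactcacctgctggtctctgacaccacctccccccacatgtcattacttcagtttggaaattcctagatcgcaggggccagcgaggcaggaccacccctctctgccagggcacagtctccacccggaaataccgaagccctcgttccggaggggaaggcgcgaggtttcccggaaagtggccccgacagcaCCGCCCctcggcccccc

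Both strands were searched for the GC box GGGCGG, an ETS site CCGGAAG and an AP-1 site TGANTCA, no motif overlapping another in these windows. The windows of Itgb1 and Icam1 held 1 GC box each and no other of these motifs, and those of Cd44 and Itgb7 held none of them. Of 32851 mouse windows of this length, 32.7% held a GC box, 6.91% the ETS site, 6.75% the AP-1 site and 1.41% the kB site. GC content was 68% before Itgb1, 56.4% before Cd44, 65.2% before Icam1 and 56% before Itgb7, where the median window had 52.4%. These matches describe the letters only.

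Levels are UMIs of the gene summed over a group of cells and divided by all UMIs of the group, in CPM, and they can be compared between groups but not between genes. A gene counts as higher or lower where the ratio is at least 1.5. Between the ages, Itgb1 was the 1 member higher in the adult library, while Cd44, Icam1, S1pr1 and S1pr4, 4 of the 9, were lower. Over all 10703 genes with enough UMIs, 7.82% were higher and 12.2% lower by that fold, and the median gene lay at -0.13 on the log2 scale. Between the classes, Itgb1, Cd44, Itgb7 and Icam1 were higher in neonatal B1-gene cells, 4 of the 9, and none was lower, where 9.42% of genes were higher and 13.2% lower. In the adult library Itgb1 and Cd44 were higher, 2 of the 9, and none was lower, where 7.00% of genes were higher and 5.57% lower. The median log2 ratio of the 9 was 0.36 in the neonatal library and 0.18 in adult cells, beside -0.10 and -0.05 over all genes. The members and the genes of the rule were chosen with earlier results of these data known. The counts beside these shares are thus a description and no evidence of an excess. Itgb1 and Cd44 also stand in the list of genes the study raised for CD11b+ cells, as do Cd9 and Ctla4 of the rule, and that list was drawn from these same cells, so it is no independent evidence of the direction.

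**Figure D1:**
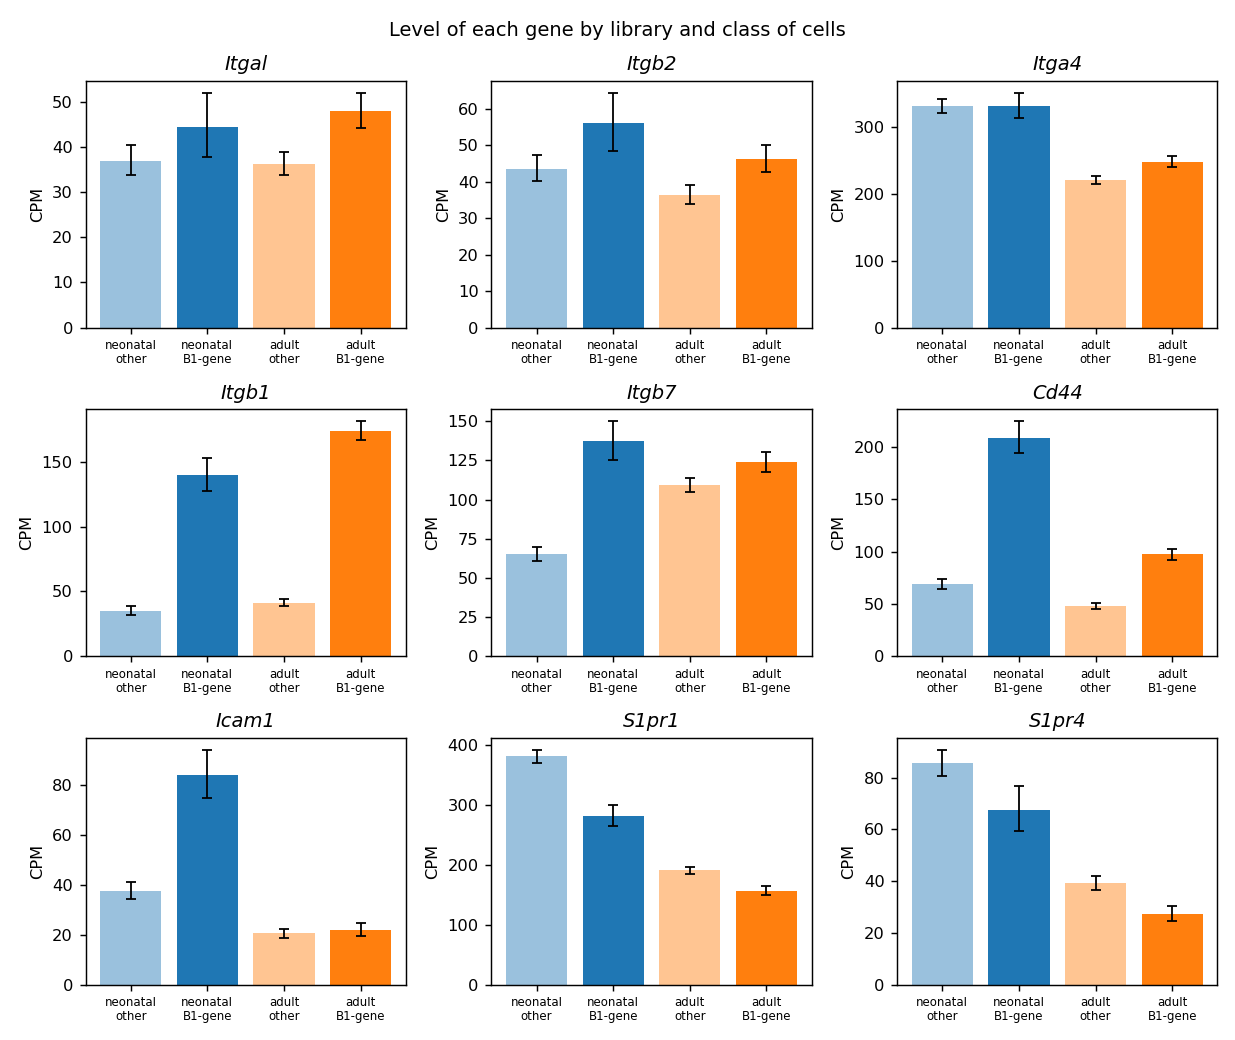
Level of each gene in CPM (y axis, from 0, a scale of its own in each panel) in other and B1-gene cells of the neonatal and adult libraries, with exact Poisson 95% intervals for counting error. Itgb1 and Cd44 were higher in B1-gene cells at both ages, and S1pr1 and S1pr4 were lower in the adult library in both classes.

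Itgal, the alpha chain of LFA-1, was at 37.0 CPM in neonatal other cells, 44.5 in neonatal B1-gene cells, 36.3 in adult other cells and 47.9 in adult B1-gene cells. In the order adult B1-gene, neonatal B1-gene, neonatal other and adult other, the 95% interval of each group overlapped that of its neighbor. The log2 ratio of B1-gene over other cells was 0.27 (95% interval -0.00 to 0.53) in the neonatal library and 0.40 (0.25 to 0.56) in adult cells. In the deepest of 4 equal bins of cells by UMIs the ratio was -0.25 in neonatal cells, the opposite direction, and 0.23 in adult ones. Where cells with at least 2 UMIs of other cell types' markers were left out, neonatal B1-gene cells were at 36.5 in place of 44.5 CPM and adult B1-gene cells at 44.5 in place of 47.9. Other cells were lower too, and the neonatal class ratio was then 0.30 and the adult one 0.33.

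Itgb2, the beta chain of LFA-1, was at 43.6 and 56.0 in neonatal other and B1-gene cells and at 36.4 and 46.2 in the adult ones. Adult other cells were lowest and their interval (33.9 to 39.0) lay below that of neonatal other cells (40.0 to 47.4), while the 3 higher groups overlapped from neighbor to neighbor. The ratio of B1-gene over other cells was 0.36 (0.12 to 0.60) and 0.35 (0.19 to 0.50), below the fold in both libraries. In the deepest of the 4 bins it was 0.02 and 0.15. At 2000 UMIs per cell it was -1.01 and -1.84, where the 26 neonatal and the 58 adult B1-gene cells held 1 Itgb2 UMI each in sum. With at least 2 of the 6 genes at that depth, which 114 and 289 cells had, it was 0.83, past the fold, and 0.49. Over all cells, neither chain of LFA-1 passed the fold with age: the log2 ratio of adult over neonatal was 0.07 (-0.07 to 0.21) for Itgal and -0.21 (-0.34 to -0.08) for Itgb2. Without cells holding other types' markers these were 0.32 and -0.01.

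Itga4, the alpha chain shared by VLA-4 and LPAM-1, lay within the fold between the classes and, over all cells, between the ages. Neonatal other and B1-gene cells were at 331 CPM each, with a log2 ratio of 0.00 (-0.09 to 0.10). Adult other cells were at 220 and adult B1-gene cells at 248, a ratio of 0.17 (0.11 to 0.24). Adult over neonatal was -0.52 (-0.57 to -0.47) over all cells, within the fold, and -0.59 (-0.65 to -0.53) in other cells, just past it.

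Itgb1, the beta chain of VLA-4, had the largest ratio of B1-gene over other cells among the 9 members when all cells were summed. In the neonatal library Cd44 had the larger ratio at 2000 UMIs per cell (2.47 against 1.75). There the classes were set anew after thinning, and 26 B1-gene cells held 21 UMIs of Cd44 and 7 of Itgb1. Cd44 also had the larger ratio without droplets over 2.5 times the median UMIs (1.83 against 1.51). S1pr4 had the larger one with a mitochondrial limit of 5% (0.84 against 0.49). Itgb1 was at 35.2 CPM in neonatal other cells and 140 in neonatal B1-gene cells, and at 41.3 and 174 in the adult classes. No interval of the 4 groups overlapped another, and both B1-gene groups lay above both other groups. The ratio of B1-gene over other cells was 3.97-fold (log2 1.99, 1.80 to 2.18) in the neonatal library and 4.21-fold (log2 2.07, 1.96 to 2.19) in adult cells. A UMI of Itgb1 was found in 78.0% of neonatal and 84.1% of adult B1-gene cells, against 16.1% and 16% of other cells. With every cell reduced to 2000 UMIs and the classes kept as set before, these shares were 24.3% and 31.6% against 5.53% and 5.48%. Free RNA of the droplets without cells would have given at most 0.167% of any of these groups a UMI.

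The Itgb1 ratio was smaller among the deepest cells. Of the B1-gene cells, 171 of 177 neonatal and 465 of 580 adult ones fell into the deepest of the 4 bins. B1-gene cells there still had more UMIs, with neonatal medians of 16365 against 10811 and adult medians of 18444 against 14935.5. Within this bin Itgb1 was at 141 CPM in B1-gene cells and 50.5 in other cells of the neonatal library, and at 175 and 62.3 in the adult. The log2 ratios there were 1.48 and 1.49. Over the other alternatives Itgb1 was past the fold in both libraries, except at 0.49 in the neonatal library with a mitochondrial limit of 5%, which kept 12 neonatal B1-gene cells. Without cells that carried other types' markers, its level was 140 in neonatal and 168 in adult B1-gene cells.

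**Figure D2:**
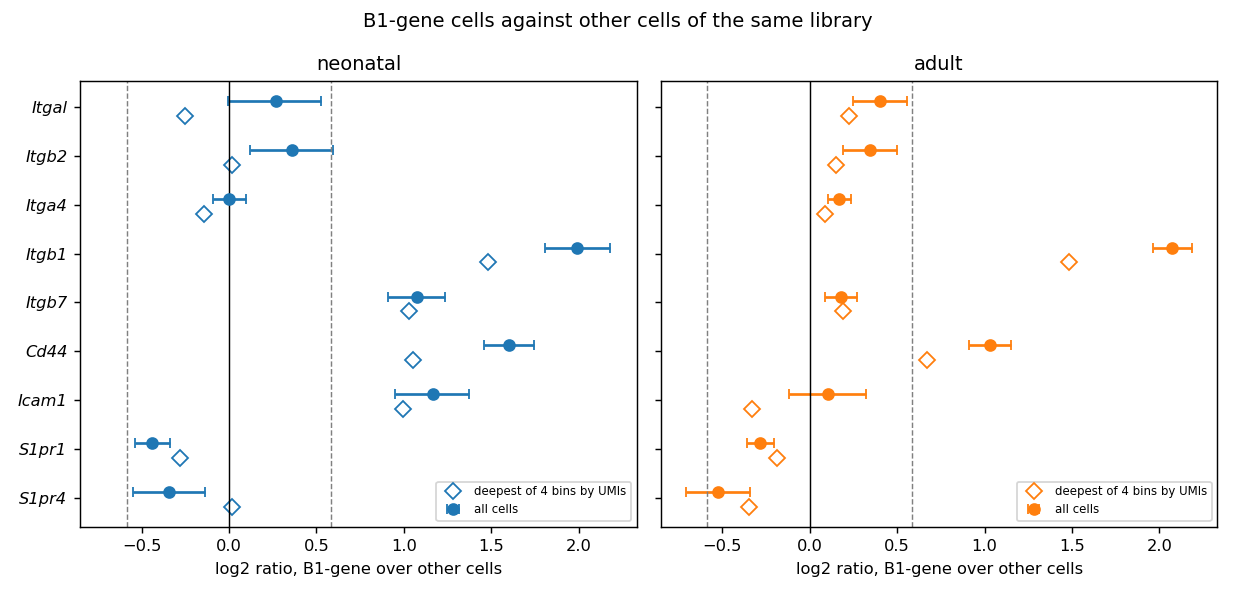
Log2 ratio of B1-gene over other cells (x axis) for each gene (y axis) in the neonatal (left) and adult (right) library, over all cells (filled circles with exact 95% intervals for counting error) and within the deepest of 4 bins of cells by UMIs (open diamonds). Dashed lines mark the 1.5 fold, and Itgb1 and Cd44 lie beyond it in both libraries and both sets of cells.

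With age, the Itgb1 ratio was smaller within the classes than over all cells. Adult over neonatal was 0.64 (0.53 to 0.74) over all cells, 0.23 (0.07 to 0.40) in other cells and 0.31 (0.17 to 0.46) in B1-gene cells, whose share was 8.52% in the neonatal library and 16.1% among adult cells. The ratio over all cells lay near the threshold. It was 0.49 against the 1279 neonatal cells with Y-linked transcripts and no Xist, 0.52 with each cell weighed alike and 0.51 at 2000 UMIs per cell, all below the fold, and -0.92 with a mitochondrial limit of 5%, which kept 60 neonatal and 156 adult cells.

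Itgb7, the beta chain of LPAM-1, passed the fold between the neonatal classes and not between the adult ones, and the difference of these ratios was not tested. It was at 65.3 CPM in neonatal other cells and 137 in neonatal B1-gene cells, a log2 ratio of 1.07 (0.91 to 1.24). Adult other cells were at 109 and adult B1-gene cells at 124, a ratio of 0.18 (0.09 to 0.27). In the order of levels the 2 B1-gene groups overlapped, adult other cells lay below them, and neonatal other cells lay lowest with an interval of 61.0 to 69.9.

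With age Itgb7 was thus higher in adult other cells, by 0.74 (0.63 to 0.86) on the log2 scale, and not in B1-gene cells, where the ratio was -0.15 (-0.29 to 0.00). Over all cells the ratio was 0.50 (0.41 to 0.60), below the fold, and it ran from -0.02 to 0.69 over the alternatives. It passed the fold at 0.59 without shared barcodes, 0.69 without droplets over 2.5 times the median UMIs, 0.64 with each cell weighed alike, 0.67 at 2000 UMIs per cell and 0.66 with median-of-ratios scaling. In the deepest bin the neonatal ratio of the classes was 1.03 and the adult one 0.19, close to those over all cells.

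Both chains of an integrin were sought in the same cell, with every cell reduced to 2000 UMIs. Itga4 and Itgb1 were found together in 19 of 177 neonatal B1-gene cells (10.7%, 95% interval 6.59% to 16.3%) and in 67 of 580 adult ones (11.6%, 9.07% to 14.4%), against 2.32% (1.69% to 3.1%) and 1.91% (1.46% to 2.47%) of other cells. The intervals of the classes, which are for counting error only, did not overlap in either library. The product of the separate shares gave 11.9% and 11.5% in B1-gene cells and 2.36% and 1.80% in other cells, so the chains were found together about as often as their shares alone give.

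Itga4 and Itgb7 were found together in 11.9% (7.50% to 17.6%) of neonatal B1-gene cells and 4.74% (3.83% to 5.79%) of neonatal other cells. In the adult library the shares were 8.28% (6.16% to 10.8%) and 6.76% (5.89% to 7.72%), with overlapping intervals. Both chains of LFA-1 were found in at most 1.13% of any group at this depth, where 2 neonatal and 3 adult B1-gene cells held them, so no difference was detectable. At the depth as sequenced, 29.9% and 29.7% of neonatal and adult B1-gene cells had UMIs of both LFA-1 chains and 4.58% and 5.64% of other cells. The product of the separate shares gave 26.8% and 27.1% in B1-gene cells, which are deeper, and 3.81% and 4.03% in other cells.

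**Figure D3:**
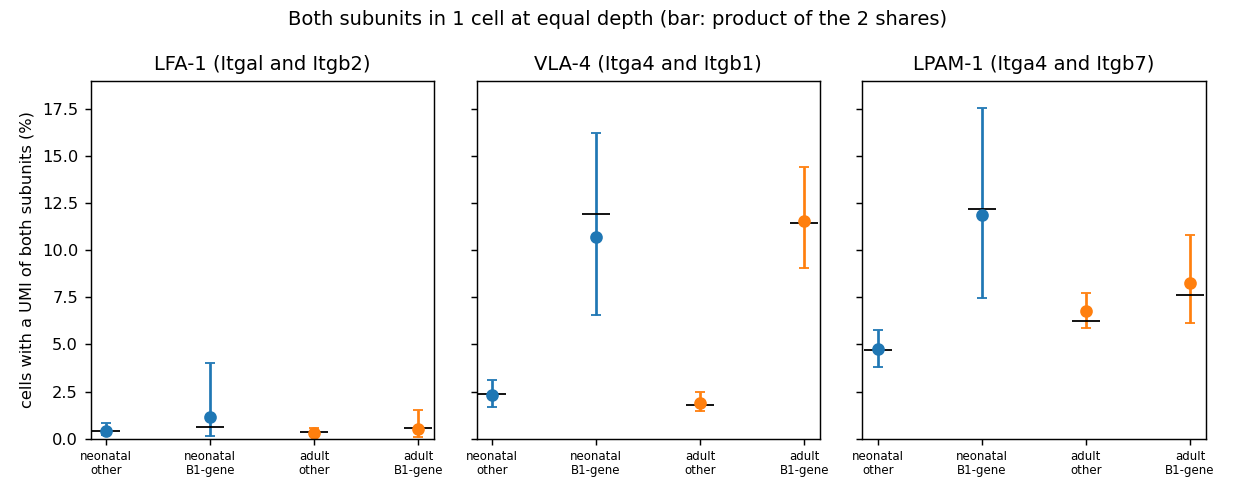
Share of cells (y axis, in percent, from 0) with a UMI of both chains of LFA-1, VLA-4 and LPAM-1 in the 4 groups of cells at 2000 UMIs per cell, with exact Clopper-Pearson 95% intervals and, as black bars, the product of the separate shares. The VLA-4 pair was found in 10.7% and 11.6% of neonatal and adult B1-gene cells and in 2.32% and 1.91% of other cells.

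Cd44, which binds hyaluronan on endothelium and in matrix, was higher in B1-gene cells at both ages and lower in the adult library. Neonatal other cells were at 69.1 CPM and neonatal B1-gene cells at 209, and adult other cells at 47.6 and adult B1-gene cells at 97.4. No interval of the 4 groups overlapped another, and the order was neonatal B1-gene, adult B1-gene, neonatal other, adult other. The class ratio was 1.6 (1.46 to 1.74) on the log2 scale in the neonatal library and 1.03 (0.91 to 1.15) in adult cells. In the deepest bin it was 1.05 and 0.67. Among other cells alone, Cd44 was at 40.8 CPM in the shallowest and 101 in the deepest bin of the neonatal library. In the adult library these levels were 23.6 and 60.7, and the part of depth in the class ratio was not tested.

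With age Cd44 was lower by more in B1-gene cells, where the log2 ratio was -1.10 (-1.24 to -0.97), than in other cells, where it was -0.54 (-0.67 to -0.41), and this difference was not tested. Over all cells it was -0.60 (-0.69 to -0.50), close to the fold. It lay within the fold at -0.49 without cells holding other types' markers, -0.45 without shared barcodes, -0.51 without droplets over 2.5 times the median, -0.56 with a minimum of 5000 UMIs and -0.44 with median-of-ratios scaling.

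At 2000 UMIs per cell, the members could be followed over the number of B1 genes a cell held. Itgb1 was at 28.0 CPM in neonatal cells with none of the 6 genes, 53.1 with 1, 210 with 2 and 135 with 3 or more. In the adult library it was at 28.0, 104, 195 and 250. Cd44 was at 57.0, 111, 216 and 404 in the neonatal and 36.0, 76.1, 90.9 and 129 in the adult cells. These steps had medians before thinning of 5768 to 16406.5 UMIs in the neonatal library and 4804.5 to 14367 in adult cells, and the step with 3 or more held 26 and 58 cells, with 7 and 29 UMIs of Itgb1.

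**Figure D4:**
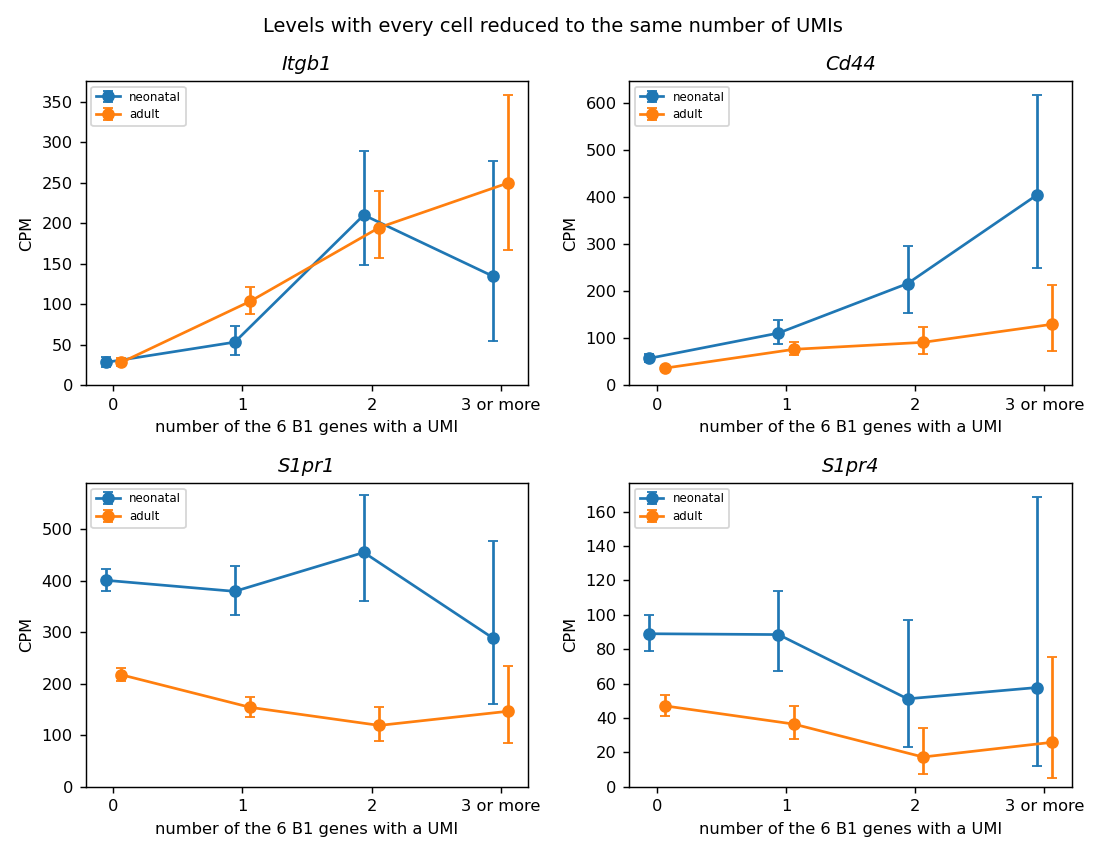
Level in CPM (y axis, from 0) of Itgb1, Cd44, S1pr1 and S1pr4 by the number of the 6 B1 genes with a UMI (x axis), every cell reduced to 2000 UMIs, with exact Poisson 95% intervals, for the neonatal (blue) and adult (orange) library. Itgb1 went from 28.0 to 135 in the neonatal library and from 28.0 to 250 in the adult one between cells with none and with 3 or more.

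The genes whose levels over these 8 groups of cells were most like those of Itgb1 were Rpl23a, a ribosomal protein gene (Pearson r = 0.978), A530032D15Rik (0.974) and Sp140 (0.971), among 5401 genes. For Cd44 they were Lmna, a lamin of the nuclear envelope (0.986), Phgdh, an enzyme of serine synthesis (0.984), and Crip1 (0.981). The 8 groups share 2 libraries, and these values are a description.

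Icam1, the ligand of LFA-1 and a gene that activated B cells raise, was at 37.4 CPM in neonatal other cells, 83.8 in neonatal B1-gene cells, 20.4 in adult other cells and 22.0 in adult B1-gene cells. The adult classes overlapped, and each neonatal class lay above both. The class ratio was 1.16 (0.95 to 1.38) in the neonatal library and 0.11 (-0.12 to 0.32) in adult cells. A single neonatal B1-gene cell held 45 of the 298 UMIs, 15.1%, and without the cell of most Icam1 UMIs the ratio was 0.94. Without droplets over 2.5 times the median UMIs, which left 79 neonatal B1-gene cells, it was 0.55 and below the fold. The neonatal ratio ran from 0.22 to 1.30 over the alternatives. In the deepest bin the ratio was 1.0 in neonatal and -0.33 in adult cells.

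With age Icam1 was lower in both classes, by -1.93 (-2.17 to -1.69) in B1-gene cells and -0.87 (-1.06 to -0.68) in other cells. Over all cells the log2 ratio was -1.18 (-1.33 to -1.03), and it ran from -1.24 to -0.97 over the alternatives. A UMI of Icam1 was found in 18.8% of neonatal and 13.9% of adult cells, and at 2000 UMIs per cell in 6.26% (5.26% to 7.39%) and 3.46% (2.89% to 4.11%).

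S1pr1, the receptor that leads lymphocytes out of tissue, was lower in the adult library. The study's imaging placed most heart B cells inside vessels, and egress from heart tissue was not measured here. Neonatal other cells were at 381 CPM, neonatal B1-gene cells at 281, adult other cells at 191 and adult B1-gene cells at 157. No interval overlapped another. Adult over neonatal was -1.01 (-1.06 to -0.96) over all cells, a level 2.02-fold lower, with -1.0 (-1.06 to -0.94) in other cells and -0.84 (-0.95 to -0.73) in B1-gene cells. The ratio over all cells ran from -1.06 to -0.48 over the alternatives, and the latter value lay within the fold. A UMI of S1pr1 was found in 84.1% of neonatal and 60.5% of adult cells, and at 2000 UMIs per cell in 50.2% (48.0% to 52.3%) and 29.2% (27.7% to 30.7%).

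Between the classes the S1pr1 ratio was below the fold: -0.44 (-0.54 to -0.34) in the neonatal library and -0.28 (-0.36 to -0.20) in adult cells. It was -0.28 and -0.19 in the deepest bin, where B1-gene cells were still the deeper ones. Among other cells alone, the bins from shallowest to deepest were at 482, 392, 357 and 340 in the neonatal library. In the adult library they were at 227, 226, 161 and 180, and the part of depth in the class ratio was not tested. By the number of B1 genes at 2000 UMIs per cell, neonatal levels were 401, 379, 455 and 288 with no steady order, and adult levels 217, 154, 119 and 147.

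S1pr4, a further sphingosine 1-phosphate receptor of lymphocytes, followed the same order of groups. It was at 85.5 CPM in neonatal other cells, 67.5 in neonatal B1-gene cells, 39.3 in adult other cells and 27.3 in adult B1-gene cells, with no overlap of intervals. Adult over neonatal was -1.23 (-1.34 to -1.11) over all cells, a level 2.34-fold lower, -1.12 (-1.25 to -0.99) in other cells and -1.30 (-1.55 to -1.06) in B1-gene cells. Over the alternatives the ratio over all cells ran from -1.24 to -0.71. Between the classes the ratio was -0.34 (-0.55 to -0.14) in the neonatal library, where it was 0.02 in the deepest bin, and -0.52 (-0.71 to -0.34) in the adult library, where it was -0.35 there. The class ratios came past the fold in several alternatives, the neonatal one at -0.59 with each cell weighed alike and the adult one at -0.70 without droplets over 2.5 times the median and -0.67 with each cell weighed alike.

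Cells outside the B1-gene class were split by transcripts of the B2 series: Cr2 (CD21) and Fcer2a (CD23), which mature follicular cells carry, and Vpreb3, a gene of immature B cells. The classes rest on detected UMIs and differ in depth, with neonatal medians from 5213 to 6819.5 and adult medians from 4123 to 7838. S1pr1 was highest in cells with Vpreb3 and neither of the others, at 431 (412 to 452) CPM in 731 neonatal cells, with an interval that overlapped that of cells with none of the 3 transcripts at 390 (356 to 426). In the adult library it was at 228 (201 to 256) in 253 such cells, overlapping cells with Fcer2a only at 199 (188 to 210). These Vpreb3 cells had the lowest neonatal Cd44 of the 6 classes, 49.0 (42.6 to 56.2), below cells with Fcer2a only at 68.6 (61.3 to 76.5).

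Itgb1 was low in cells with Fcer2a only, at 25.6 (21.2 to 30.6) in the neonatal library and 26.9 (23.0 to 31.2) in adult cells, and higher in cells with none of the 3 transcripts, at 73.3 (59.2 to 89.7) in 185 neonatal and 124 (106 to 144) in 240 adult cells. Of the latter class, 7 neonatal and 4 adult cells held other types' markers, and without them its Itgb1 was at 61.8 and 116. Adult cells with Cr2 only were at 57.4 (46.3 to 70.4), above those with Cr2 and Fcer2a at 36.8 (33.4 to 40.5). Itga4 was highest in neonatal cells with Cr2 and Fcer2a, at 410 (381 to 441), and at 266 (233 to 303) in those with Cr2 only. Neonatal Itgb7 was lowest in Vpreb3 cells, at 48.3 (41.9 to 55.4), and adult Itgb7 lay between 89.6 and 124 in all 6 classes.

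**Figure D5:**
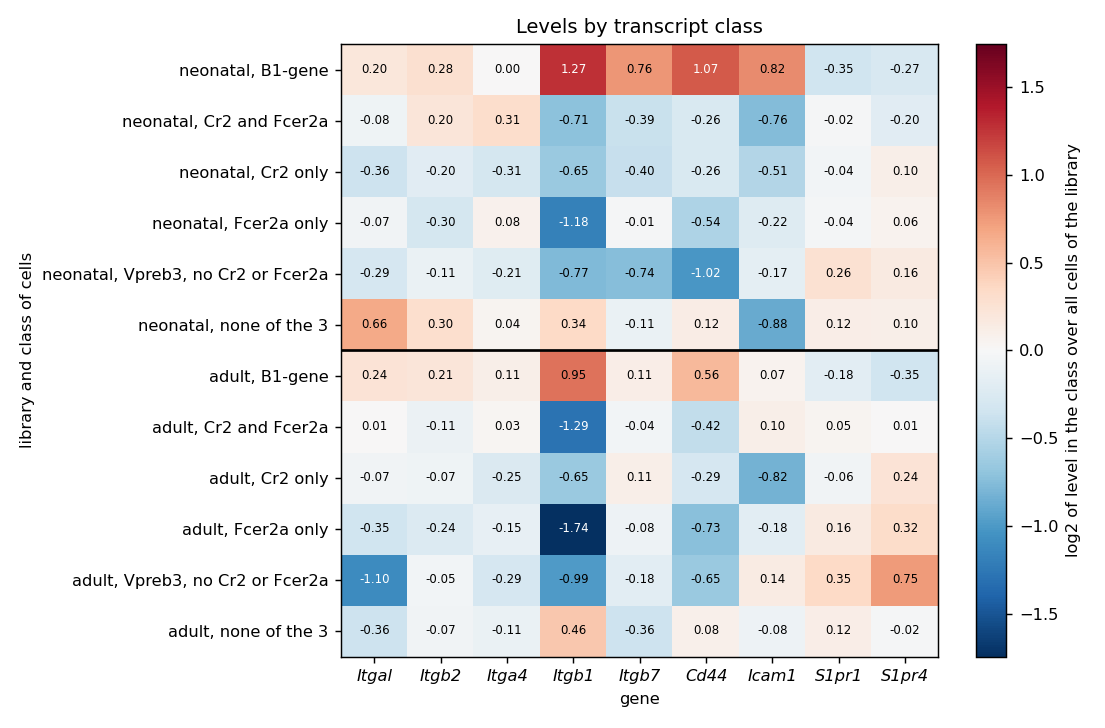
Level of each gene (x axis) in 6 classes of cells in each library (y axis), as log2 of the level in the class over that in all cells of the same library (color and printed value). Itgb1 and Cd44 stand high in the B1-gene rows, and S1pr1 is highest in the rows of cells with Vpreb3 and neither Cr2 nor Fcer2a.

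Cycling cells, with a UMI of at least 3 of 8 mitosis genes, were 20 neonatal and 53 adult cells, of which 14 and 30 were B1-gene cells. S1pr1 was at 173 (143 to 207) CPM in the neonatal cycling cells and 367 (358 to 377) in the rest, and at 95.4 (80.7 to 112) and 182 (178 to 187) in the adult. Itgb1 was at 153 and 53.8 in the neonatal library and at 119 and 88.6 in adult cells. The neonatal cycling cells had a median of 31060.5 UMIs, and 9 of the 20 held at least 2 UMIs of other cell types' markers. Without those, S1pr1 was at 234 and Itgb1 at 165.

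Cells with at least 3 of 8 interferon-induced genes were 28 neonatal and 325 adult cells. Itgal was at 105 (73.3 to 146) CPM in the neonatal ones, where 3 of the 28 cells held other types' markers, and at 35.9 without those 3 cells, beside 37.2 in cells outside this class. The adult ones were at 49.4 (44.3 to 54.8) for Itgal, or 44.4 without such cells, and at 38.3 (36.0 to 40.6) outside. S1pr1 was at 146 (137 to 155) in adult interferon cells and 187 (182 to 192) outside, within the fold, with medians of 14556 and 5574.5 UMIs. Of these adult cells 130 were B1-gene cells.

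The same genes were read in droplets with macrophage markers, and the part of such droplets in the results was not tested. In 10 neonatal droplets with at least 4 macrophage markers, which had a median of 13370 UMIs, Itgal was at 666 CPM, Itgb2 at 597, Itgb1 at 398, Cd44 at 762 and Icam1 at 124, while S1pr4, with 2 UMIs, was at 13.7. The 4 adult droplets of this kind, with a median of 22337 UMIs, were lower for the first 5. Itgal was at 134 there, Itgb2 at 156, Itgb1 at 134, Cd44 at 212 and Icam1 at 112, and S1pr4 was at 55.9 with 5 UMIs. Without cells holding other types' markers, the class ratios were 2.14 and 2.09 for Itgb1, 1.71 and 1.02 for Cd44, 1.10 and 0.16 for Itgb7 and 1.0 and 0.13 for Icam1 in the neonatal and adult library. T cell markers were at 2 or more UMIs in 5.65% and 2.76% of B1-gene cells and in 0.158% and 0.297% of other cells.

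Further genes of adhesion and egress were read from lists, also chosen with earlier results of these data known. Of 21 other integrin subunits, 4 had at least 50 UMIs. Over all genes 7.82% were higher and 12.2% lower with age, 9.42% and 13.2% in neonatal B1-gene cells and 7.00% and 5.57% in adult ones. With age none of the 4 was higher and 1 lower, in neonatal B1-gene cells 2 were higher and 1 lower, and in adult ones 1 was higher and 1 lower. Their median log2 ratio of B1-gene over other cells was 0.19 in the neonatal library and -0.08 in adult cells, and Itgam is described above. Itga6, the laminin receptor chain, was at 25 and 16.4 CPM in neonatal B1-gene and other cells (0.61, 0.23 to 0.97), and Itgb3 at 4.33 and 7.34 in the adult ones (-0.76, -1.23 to -0.31). Itgb3 was also lower in the adult library, at 6.24 against 9.94 (-0.67, -0.97 to -0.37).

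Of 31 genes that activate or anchor integrins, 28 had at least 50 UMIs, and 1 was higher and 3 were lower in the adult library, where 7.82% and 12.2% of all genes were, with a median log2 ratio of -0.22. The lower ones were Rasgrp2, the Rap1 exchange factor that switches integrins on (169 against 277 CPM, -0.71), Vcl, vinculin (9.39 against 17.4, -0.89), and Fyb, an adaptor of integrin activation (4.62 against 9.88, -1.10). The higher one was Skap1, with 15 neonatal and 93 adult UMIs, too few to be named by the rule. In neonatal B1-gene cells Rap1a was at 274 against 182 in other cells (0.59), and Cytip, Cyth1 and Ptk2b were lower, at 439 against 734, 76.8 against 116 and 52.3 against 92.1. In adult B1-gene cells Vcl was the 1 gene of the list past the fold, at 12.3 against 7.71 (0.67, 0.35 to 1.0). Over all genes 9.42% were higher and 13.2% lower in neonatal B1-gene cells, and 7.00% and 5.57% in adult ones.

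Of 25 other adhesion molecules, 24 were in the table and 19 had at least 50 UMIs. In neonatal B1-gene cells 3 were higher and 3 lower, and in adult ones 2 were higher and 1 lower, beside 9.42% and 13.2% of all genes in the neonatal and 7.00% and 5.57% in the adult comparison. Emb, embigin, an adhesion molecule of the immunoglobulin family, was at 149 CPM in neonatal B1-gene and 38.2 in other cells (1.96, 1.78 to 2.14) and at 71.8 and 17.9 in the adult (2.00, 1.83 to 2.18). Selplg, the P-selectin ligand PSGL-1, was at 88.1 and 58.0 in the neonatal (0.60) and 52.4 and 34.7 in the adult classes (0.59). Alcam was higher in neonatal B1-gene cells, 21.4 against 12.1 (0.82), and Icam2 lower, 37.4 against 57.4 (-0.62). With age Cd2 was lower, 223 against 458 (-1.04), as were Emb (-0.73) and Selplg (-0.65), and Jaml (1.29) and Alcam (0.76) were higher. In all 3 comparisons the median of the list lay between -0.08 and -0.04.

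Of 22 sphingosine 1-phosphate receptors and egress regulators, 18 had at least 50 UMIs, and none was higher and 3 were lower in the adult library, with a median of -0.25, beside 7.82% and 12.2% of all genes. In neonatal B1-gene cells 3 were higher and 3 lower, beside 9.42% and 13.2%, and in adult ones 2 and 2, beside 7.00% and 5.57%. Spns2, a transporter that exports sphingosine 1-phosphate, was at 7.83 CPM in the adult library and 13.4 in neonatal cells (-0.78, -1.04 to -0.51), and in B1-gene cells it was below other cells at both ages (-1.11 and -0.93). Rgs2, a regulator of G protein signals, was lower in B1-gene cells at both ages, 153 against 245 (-0.68) and 150 against 225 (-0.59). In the neonatal library Rgs1 was higher in B1-gene cells, 58.5 against 30.5 (0.94), and Foxo1 lower, 81.3 against 165 (-1.02). Plpp3, a phosphatase of the lipid, was higher in adult B1-gene cells, 15.8 against 9.58 (0.73). S1pr3, a receptor of marginal zone B cells with too few UMIs to be named by the rule and picked after its values were seen, had 32 UMIs in neonatal B1-gene and 24 in other cells (2.27) and 47 and 25 in the adult (1.70). Cd69, which pulls S1pr1 from the surface and was picked after its values were seen, lay within the fold in each comparison, at -0.33 with age and at -0.25 and -0.55 in neonatal and adult B1-gene cells. Of 6 vascular and matrix genes that B cells should lack, such as Vcam1 and Madcam1, the ligands of VLA-4 and LPAM-1, 1 had at least 50 UMIs over both libraries and it was within the fold.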

How the data were processed

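Heart B cells of neonatal and adult mice went into droplets of the 10x Chromium 3′ v3 chemistry, in 1 library for each age. The authors aligned reads to mm10 and counted UMIs with Cell Ranger (version 3.0.2 in the file headers, a later one in the methods), and deposited raw counts per gene and barcode, with empty droplets and no normalization. The files held 26866958 neonatal and 49500780 adult gene UMIs. The rows of the 3 antibodies held 3 and 2 UMIs and were not used.

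Cells were droplets with at least 2000 gene UMIs, at most 10% of UMIs from mt- genes and a Cd79a UMI. They held 16403180 neonatal and 34623240 adult UMIs, which set the precision of each value. No caller of doublets was run, and droplets with other cell types' markers or over 2.5 times the median UMIs were left out as alternatives. Other alternatives changed the limits on UMIs, mitochondrial share, B cell transcripts, B1 genes and fold, the scaling, the weight and depth of cells, shared barcodes, free RNA and the neonatal sexes. Levels were summed UMIs scaled to 1000000 per group (CPM), with exact Poisson intervals, exact conditional binomial intervals for ratios and Clopper-Pearson intervals for shares, all at 95% and for counting error only. Cells are not replicates, and there was no test. A gene entered the background with at least 50 UMIs in both groups together. Thinning drew 2000 UMIs from each cell at random. Free RNA was taken from droplets ranked 45000 to 90000 by UMIs. Likeness was Pearson r of log2(CPM + 1) over genes with at least 200 thinned UMIs.

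The members, the lists and the 6 genes were chosen with earlier results of these data known. All 9 members are named, and of each list at most 6 genes past 1.5 times with at least 200 UMIs. Skap1, S1pr3 and Cd69 are named outside this rule. Of the table's gene identifiers, 30934 of 31053 matched the GENCODE annotation. The work used scipy 1.17.1 and pandas 2.3.3 with numpy 2.4.6 under Python 3.11.15, and matplotlib 3.10.9 for drawing. The ratios and their intervals were tested on simulated sums with no spread between cells. Flow cytometry and imaging were not analysed here.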

Additional observations from a re-analysis of the deposited data

Results flagged for a closer look

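For Itgb7 the log2 ratio of adult over neonatal was 0.74 in other cells and -0.15 in B1-gene cells, opposite directions in the 2 classes. The difference was not tested, and the interval of the second value reached 0.00. For Itgal the same ratios were -0.028 in other cells and 0.11 in B1-gene cells, again opposite, with intervals that both held 0, and that difference was not tested either.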

How the results depend on the processing

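With 1 library per age the design has no replicates to leave out, and counting error is the only error shown. No paired analysis was possible because each age has 1 library. The members called higher were within 1.5 times of the stated count in 9 of 15 alternatives for age, 19 of 20 for neonatal and 19 of 19 for adult B1-gene cells. Those counts do not say which member: for age it was Itgb7 in place of Itgb1 with each cell weighed alike and at 2000 UMIs per cell. For age, 1 member was higher as reported, 2 (Itgb1 and Itgb7) without droplets over 2.5 times the median UMIs, without shared barcodes or with median-of-ratios scaling, and 0 against neonatal male cells, at a fold of 2 or with a mitochondrial limit of 5%. That limit kept 60 neonatal and 156 adult cells, with 12 neonatal and 21 adult B1-gene cells. Under it 7 members were lower with age. In neonatal B1-gene cells 1 was higher and 5 were lower, and in adult ones 1 was lower. The age ratio of Itgb1 turned to -0.92 and the neonatal class ratio of Cd44 to -1.54, and the cause was not tested. The share of all genes past the fold was not computed under this limit or the other alternatives. Members lower in B1-gene cells, 0 as reported, were 1 (S1pr4) in both libraries with each cell weighed alike. Without droplets over 2.5 times the median there was 1 in the adult. At 2000 UMIs per cell (26 and 58 B1-gene cells) there were 3 neonatal (Itgal, Itgb2, S1pr4) and 2 adult members (Itgb2, S1pr4). Each of these had only 1 or 3 UMIs in the B1-gene cells. With at least 2 of the 6 genes at that depth there were 1 and 2. That last setting, the deepest of 4 bins and leaving out the cell of most UMIs were chosen after the data were seen. The median share of cells with a UMI of a member was 32.0% and 27.0% as sequenced and 12.2% and 8.78% at 2000 UMIs per cell, and that of both chains of an integrin 3.03% and 3.46% at 2000 UMIs and 18.4% and 23.3% as sequenced.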
